A study of Rattus norvegicus with 10 samples.

Results

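Complement was followed through 9 genes in primary rat cells of the oligodendrocyte (OL) lineage. They are the 3 chains of C1q (C1qa, C1qb and C1qc), the proteases C1r and C1s, the components C2 and C3, and the receptors C3ar1 and C5ar1. They were chosen by gene symbol, with earlier results of these data known, and all 9 were found among the 23487 genes of the count table. Their identifiers are ENSRNOG00000012807 (C1qa), ENSRNOG00000012749 (C1qb), ENSRNOG00000012804 (C1qc), ENSRNOG00000011796 (C1r), ENSRNOG00000011971 (C1s), ENSRNOG00000051235 (C2), ENSRNOG00000046834 (C3), ENSRNOG00000009211 (C3ar1) and ENSRNOG00000047800 (C5ar1). In the RefSeq annotation of GRCr8 C1qb, C1qc and C1qa lie side by side, as do C1r and C1s. All 9 passed the filter on low counts in every comparison.

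RNA was sequenced from 10 libraries, 2 for each of 5 groups, to ask what raising or blocking miR-145 does in OLs and in their progenitors (OPCs). The cells came from cortices of P1-P3 Sprague-Dawley pups and were enriched as OPCs by shaking them off mixed glial cultures and removing adherent cells. Such cultures can keep microglia and astrocytes. Cells put into differentiation medium with T3 and CNTF received a miRNA mimic and were taken as OLs 5 days later. One group received the miR-145-5p mimic (OL miR-145), one the miR-145-5p and miR-219 mimics together (OL miR-145+miR-219), and one a scrambled mimic (OL miR-ctl). Cells kept as OPCs with FGF2 and PDGFAA received an inhibitor of miR-145-5p (OPC anti-miR-145) or a scrambled inhibitor (OPC anti-miR-ctl) and were taken after 24 h. All oligonucleotides were used at 30 nM, and no group was left untransfected. For the OL miR-145 libraries a treatment tag names miR-219 as well, while their titles and descriptions name miR-145 alone, and they are described here as miR-145. The study counts a primary culture from a single animal as its biological replicate, a statement worded for mice although these cells are from rats. Whether libraries with the same replicate number in different groups share a culture is not given in the sources used here.

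Library totals ran from 33505706 to 42684206 counts. The labelled cell types were reflected in the sums of their markers. For 11 genes of maturing OLs such as Mbp and Mog these were between 15745 and 34864 CPM (counts scaled to library size) in the OL libraries. In the OPC libraries they were between 1093 and 1262 CPM. For 7 OPC genes such as Pdgfra they were between 3058 and 3752 CPM in OLs and between 6273 and 8575 CPM in OPCs. Not every gene followed its sum. At an adjusted p under 0.05 in edgeR, 5 of these 7 were lower in OL miR-ctl than in OPC anti-miR-ctl and 2 were higher. Of the 11 OL genes 9 were higher and 0 lower, where 28.8% of all genes were higher and 28.7% lower. Markers of other glia were present too. A list of 20 microglial genes summed to between 451 and 1800 CPM, with no gene at 0 counts in any library, and 10 astrocyte genes summed to between 484 and 680 CPM in OPCs and to between 5431 and 13196 CPM in OLs. Fibroblast and mural cell genes summed to at most 85.3 CPM and endothelial genes to at most 21.1 CPM in any library. In bulk RNA, fewer cells of a type and less RNA per cell cannot be told apart.

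Complement is a cascade of plasma and tissue proteins. C1q, built from A, B and C chains, recognises antibody, dying cells and tagged synapses and carries the proteases C1r and C1s. Active C1s cleaves C4 and C2, whose fragments together form the enzyme that splits C3. The C3 fragments mark surfaces and signal through C3ar1, while C5ar1 is the receptor for the C5a fragment made further down the cascade. In brain, microglia are the main source of C1q and carry both receptors, and reactive astrocytes are known for making C3.

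The mature sequences of miR-145-5p and miR-219a-5p are shown because the treatments concern miR-145 and miR-219. The sample titles name miR-219 without an arm or family member, so miR-219a-5p is assumed here. Both are RefSeq entries on GRCr8, with the seed, bases 2 to 8, in capitals. The miR-145-5p sequence lies at chr18:57370033-57370055 on the minus strand and the miR-219a-5p sequence at chr3:33516561-33516581 on the minus strand, and their seeds differ. Matches to these seeds in the transcripts of complement genes were not analysed here.
rno-miR-145-5p: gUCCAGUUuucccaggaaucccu
rno-miR-219a-5p: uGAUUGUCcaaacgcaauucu

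In OPCs given the miR-145 inhibitor the 3 C1q chains were higher than in OPC anti-miR-ctl, while C1r, C1s, C3 and both receptors were lower. C1q rose by 2.20-fold to 2.53-fold. C1r fell by the largest factor of the 9 genes, 4.59-fold, and the other genes that fell did so by 1.87-fold to 2.60-fold. C2 missed the threshold. Of the 9 genes, 3 were called higher and 5 lower at an adjusted p under 0.05 in edgeR's quasi-likelihood test. Among all 15496 genes tested in this comparison, 28.1% were called, 12.1% higher and 16% lower. The median log2 fold change was -0.91 over the 9 genes and 0.00451 over all genes.

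The recognition chains moved together. C1qa, the A chain, was at 206 and 163 CPM in OPC anti-miR-145 and at 85.6 and 80.7 CPM in OPC anti-miR-ctl. C1qb, the B chain, was at 224 and 183 CPM against 78.7 and 80.6 CPM. C1qc, the C chain, was at 166 and 136 CPM against 61.3 and 59.1 CPM. Both inhibitor libraries lay above both control libraries for each chain, and the inhibitor libraries were also further apart from each other than the controls were. The log2 fold change was 1.14 ± 0.13 (SE, n = 2 against 2) for C1qa, with an adjusted p of 0.000925. It was 1.34 ± 0.12 for C1qb (adjusted p = 0.000295) and 1.31 ± 0.12 for C1qc (adjusted p = 0.000334).

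The proteases that C1q carries went the other way. C1r, which activates C1s, was at 4.12 and 4.28 CPM in OPC anti-miR-145 and at 19.3 and 18.9 CPM in OPC anti-miR-ctl, a log2 fold change of -2.20 ± 0.11 with an adjusted p of 5.72e-05. The replicates of each group were nearly equal and the groups were far apart. C1s, the protease that cleaves C4 and C2, was at 0.729 and 1.03 CPM against 2.24 and 2.33 CPM. These C1s levels are low and rest on 29 and 45 counts in the inhibitor libraries and on 97 and 85 counts in the controls. Its log2 fold change was -1.38 ± 0.26, with an adjusted p of 0.00882.

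C2, the precursor of the catalytic part of the C3-splitting enzyme, was at 83.5 and 64.4 CPM in OPC anti-miR-145 and at 96.0 and 88.1 CPM in OPC anti-miR-ctl. The difference was about as large as the gap between the inhibitor libraries, at -0.33 ± 0.14 on the log2 scale with an adjusted p of 0.118. C3, the central component on which all routes of activation meet, was at 323 and 279 CPM against 602 and 515 CPM. Both inhibitor libraries were below both controls, and its log2 fold change was -0.91 ± 0.12 with an adjusted p of 0.0017. C3ar1, the receptor for the C3a fragment, was at 15.2 and 14.4 CPM against 40.6 and 33.8 CPM. That is a log2 fold change of -1.34 ± 0.12, with an adjusted p of 0.000321. C5ar1 was at 11.9 and 9.96 CPM against 26.9 and 20.5 CPM, a log2 fold change of -1.13 ± 0.16 with an adjusted p of 0.00265. For both receptors the control libraries were the high ones.

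**Figure D1:**
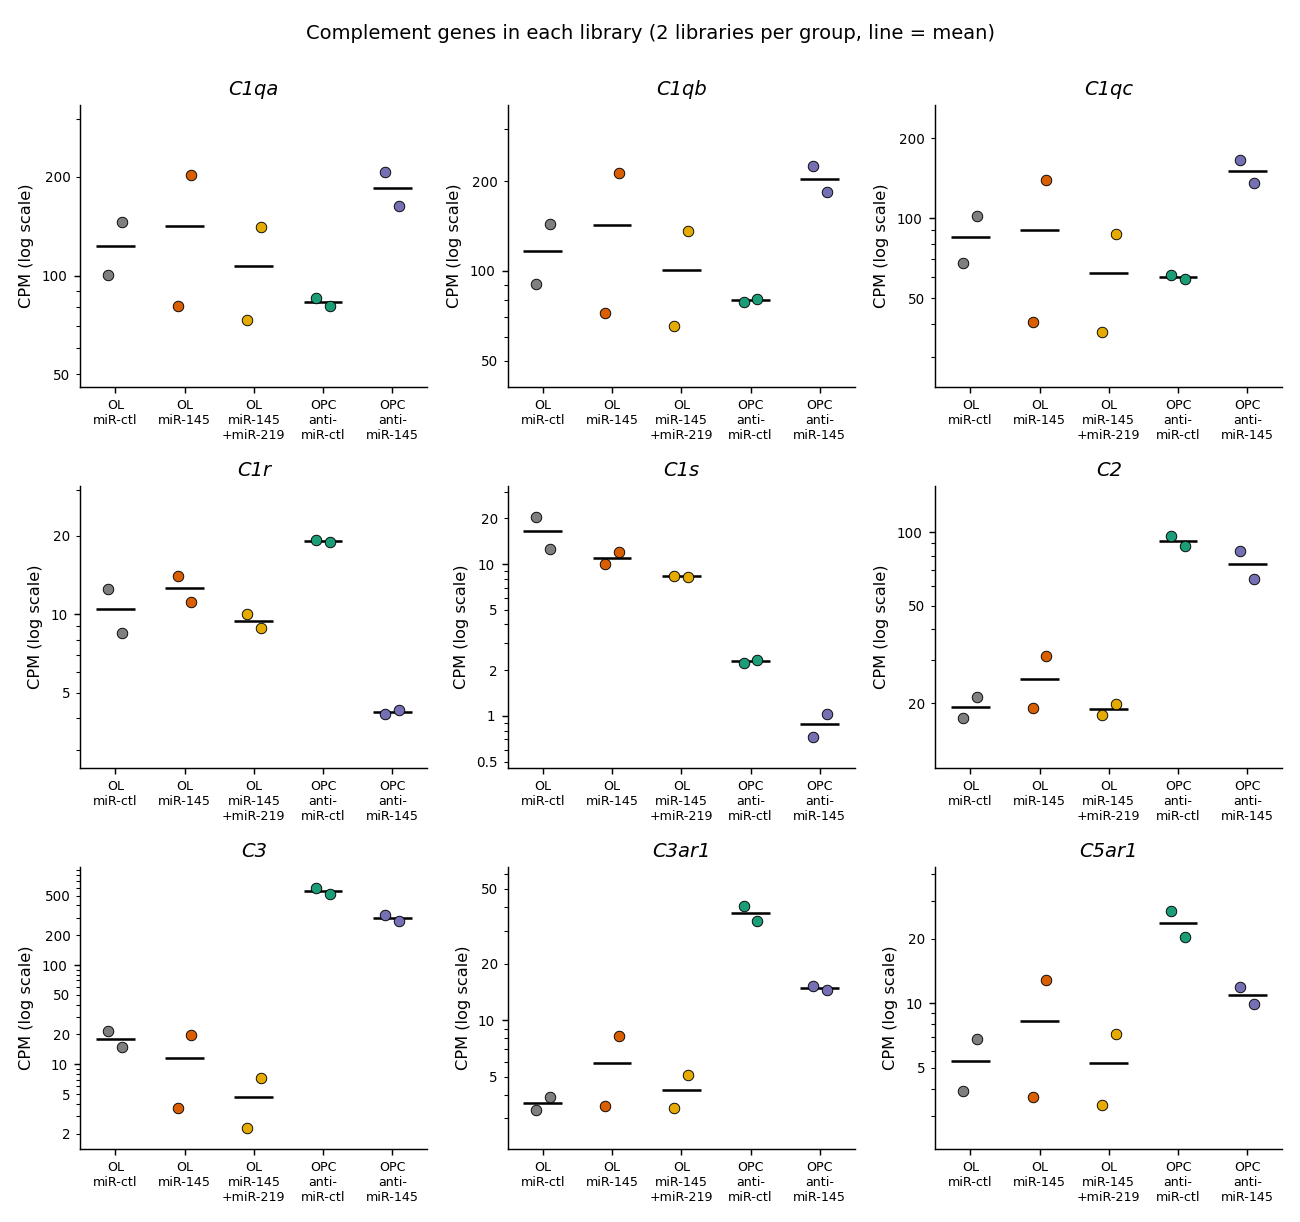
Each panel plots 1 complement gene in CPM, on a log scale that differs between panels, for the 5 groups on the horizontal axis, with 1 point per library and a line at the mean of 2. The C1q chains are highest in OPC anti-miR-145 on average (C1qb 184 to 224 CPM), C3 is highest in OPC anti-miR-ctl (515 to 602 CPM), and C1s is highest in OL miR-ctl (12.6 to 20.3 CPM).

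These calls depended on how the spread was estimated. When all 5 groups were fitted together, sharing a spread that includes the variable OL libraries, C1qa, C1qb, C1qc, C3 and C5ar1 were no longer called (adjusted p between 0.1 and 0.375), while C1r, C1s and C3ar1 were. With any 1 of the 4 OPC libraries left out, the log2 fold changes kept their sign, and that of C2 ran from -0.54 to -0.14. Such fits leave 1 library in a group and take the spread from the other group alone, so their calls carry little weight.

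Markers of other cells moved in the same comparison. The 20 microglial genes summed to 1250 and 961 CPM in OPC anti-miR-145 and to 1800 and 1636 CPM in OPC anti-miR-ctl, 8 of them called higher and 10 lower, with a median log2 fold change of -0.41. Summed C1q came to 0.477 and 0.501 of the summed microglial genes in the inhibitor libraries and to 0.125 and 0.135 in the controls. C3ar1 came to between 1.22% and 1.50% of the microglial sum with the inhibitor and to between 2.07% and 2.26% without. C5ar1 came to between 0.951% and 1.04% with it and to between 1.25% and 1.49% without. C3 came to 0.258 and 0.290 of that sum with the inhibitor and to 0.334 and 0.315 without. The share of C2 was higher with the inhibitor, at 6.68% and 6.70% against 5.33% and 5.39%. The astrocyte genes summed to between 484 and 537 CPM with the inhibitor and to between 649 and 680 CPM without it, while 2 of 9 tested were called higher and 4 lower, with a median log2 fold change of 0.27. All 15 genes of an interferon response list were called lower, with a median log2 fold change of -3.12, and that list had shown this in earlier results of these data. The part that other cells and the interferon response had in the complement differences was not tested.

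The promoters of C1qa and C1qb are shown because both genes rose in OPC anti-miR-145, and that of C3 because it fell. They are RefSeq sequences on GRCr8 from 250 bases before to 50 bases from the start of the gene, all on the minus strand, and were listed for 5 of the 9 genes (C1qa, C1qb, C1r, C3 and C3ar1). The C1qa window is chr5:154419884-154420183, that of C1qb chr5:154407778-154408077 and that of C3 chr9:2201290-2201589. Capitals mark matches, on either strand, to 3 motifs: the PU.1 core GAGGAA, a C/EBP-type motif TTGCNNAA and the interferon element, in which GAAA recurs after any 2 bases. PU.1 is the myeloid factor that microglia express.
C1qa: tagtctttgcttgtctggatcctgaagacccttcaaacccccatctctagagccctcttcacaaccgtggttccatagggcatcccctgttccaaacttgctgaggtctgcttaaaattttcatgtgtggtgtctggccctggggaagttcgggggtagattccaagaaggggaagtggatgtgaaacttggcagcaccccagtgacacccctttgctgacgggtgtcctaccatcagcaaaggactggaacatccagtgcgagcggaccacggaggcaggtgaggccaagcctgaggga
C1qb: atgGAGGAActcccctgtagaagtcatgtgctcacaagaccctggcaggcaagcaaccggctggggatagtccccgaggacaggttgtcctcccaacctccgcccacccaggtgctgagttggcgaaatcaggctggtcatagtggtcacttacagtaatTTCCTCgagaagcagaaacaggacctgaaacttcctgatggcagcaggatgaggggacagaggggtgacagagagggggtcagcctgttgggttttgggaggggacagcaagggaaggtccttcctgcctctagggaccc
C3: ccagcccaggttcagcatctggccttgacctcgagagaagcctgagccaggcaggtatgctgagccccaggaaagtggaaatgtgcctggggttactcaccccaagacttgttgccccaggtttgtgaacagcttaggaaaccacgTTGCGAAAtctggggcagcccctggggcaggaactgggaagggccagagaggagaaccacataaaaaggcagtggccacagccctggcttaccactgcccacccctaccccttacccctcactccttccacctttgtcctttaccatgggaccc

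C1qb held 2 matches to the PU.1 core, starting at base -247 on the gene's strand and at base -90 on the other strand, where base -1 precedes the gene's start. C3 held a C/EBP-type match starting at base -104. The C1qa window held none of the 3 motifs, and neither did that of C3ar1. C1r had a PU.1 core match at base -55 and a C/EBP-type match at base -83, both on the other strand. None of the 5 windows held the interferon element. These motifs are common, with 27.6% of all 33469 promoters holding the PU.1 core, 10.6% the C/EBP-type motif and 3.92% the interferon element, so a match is a description and not a site.

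The comparison of OL miR-ctl with OPC anti-miR-ctl asks how the genes differ between control OLs and control OPCs. C3, C2 and both receptors were much lower in OLs, C3 by 30.9-fold, whereas C1s was 7.14-fold higher and the C1q chains differed little. Stage, days after transfection and type of control oligonucleotide differ together between these groups and cannot be told apart. The inhibitor comparison used the same OPC anti-miR-ctl libraries, so genes lower in both comparisons are not independent findings. Of the 9 genes, 1 was called higher and 5 lower, and among all 15721 genes tested 57.5% were called, 28.8% higher and 28.7% lower. The median log2 fold change was -0.87 over the 9 genes and 0.00721 over all genes.

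C1qa was at 100.2 and 146 CPM in OL miR-ctl, beside the 85.6 and 80.7 CPM of OPC anti-miR-ctl. C1qb was at 90.1 and 143 CPM, and C1qc at 67.7 and 102 CPM. The OL libraries were the higher ones for each chain but were far apart from each other. Log2 fold changes were 0.55 ± 0.19 for C1qa, 0.54 ± 0.22 for C1qb and 0.48 ± 0.20 for C1qc, with adjusted p of 0.0507, 0.0889 and 0.091. DESeq2 called C1qa and C1qb (adjusted p = 0.0174 and 0.043). Without OL miR-ctl replicate 1 the log2 fold changes of the 3 chains in edgeR lay between 0.75 and 0.84. Without OL miR-ctl replicate 2 they were 0.25 for C1qa, 0.16 for C1qb and 0.15 for C1qc.

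C1r and C1s, which act as partners, differed in opposite directions. C1r was at 12.6 and 8.46 CPM in OL miR-ctl, below the 19.3 and 18.9 CPM of OPC anti-miR-ctl, a log2 fold change of -0.87 ± 0.20 with an adjusted p of 0.0155. That call was lost when either OPC anti-miR-ctl replicate 1 or replicate 2 was left out (adjusted p = 0.0912 and 0.0816). C1s was at 20.3 and 12.6 CPM against 2.24 and 2.33 CPM, a log2 fold change of 2.84 ± 0.27 with an adjusted p of 0.000773. The ratio of C1s to C1r in CPM ran from 1.49 to 1.61 in OL miR-ctl and from 0.116 to 0.123 in OPC anti-miR-ctl. Astrocyte markers, which are genes of a cell type known to make complement, were higher too, with 9 of 10 called higher and sums of 5431 to 6457 CPM against 649 to 680 CPM. Their part was not tested.

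C2 was at 17.4 and 21.2 CPM in OL miR-ctl against 96.0 and 88.1 CPM, a log2 fold change of -2.27 ± 0.13 (adjusted p = 0.000145). C3 was at 21.5 and 14.9 CPM against 602 and 515 CPM, a log2 fold change of -4.95 ± 0.22 (adjusted p = 8.37e-05). C3ar1 was at 3.31 and 3.92 CPM against 40.6 and 33.8 CPM, with a log2 fold change of -3.38 ± 0.16 and an adjusted p of 9.54e-05. C5ar1 was at 3.89 and 6.84 CPM against 26.9 and 20.5 CPM, with a log2 fold change of -2.16 ± 0.30 and an adjusted p of 0.00277. Each of these gaps exceeded the distance between libraries of a group, for C5ar1 by less than for C2, C3 and C3ar1. The 4 calls were made under every alternative tried that left no library out.

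Microglial genes were lower in the same OL libraries, at sums of 451 and 592 CPM against 1800 and 1636 CPM, with 13 of 20 called lower, 4 higher and a median log2 fold change of -1.47. C1q nonetheless came to 0.573 and 0.662 of the microglial sum in OL miR-ctl, against 0.125 and 0.135 in OPC anti-miR-ctl. C3 came to 0.0477 and 0.0251 of that sum in OL miR-ctl and to 0.334 and 0.315 in OPC anti-miR-ctl. All 15 interferon response genes were called lower in OL miR-ctl, with a median log2 fold change of -6.70. That list summed to between 125 and 129 CPM in OL miR-ctl and to between 129 and 160 CPM in the other OL groups. It summed to between 319 and 357 CPM in OPC anti-miR-145 and to between 2047 and 2150 CPM in OPC anti-miR-ctl. The part of these lists in the complement differences was not tested.

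**Figure D2:**
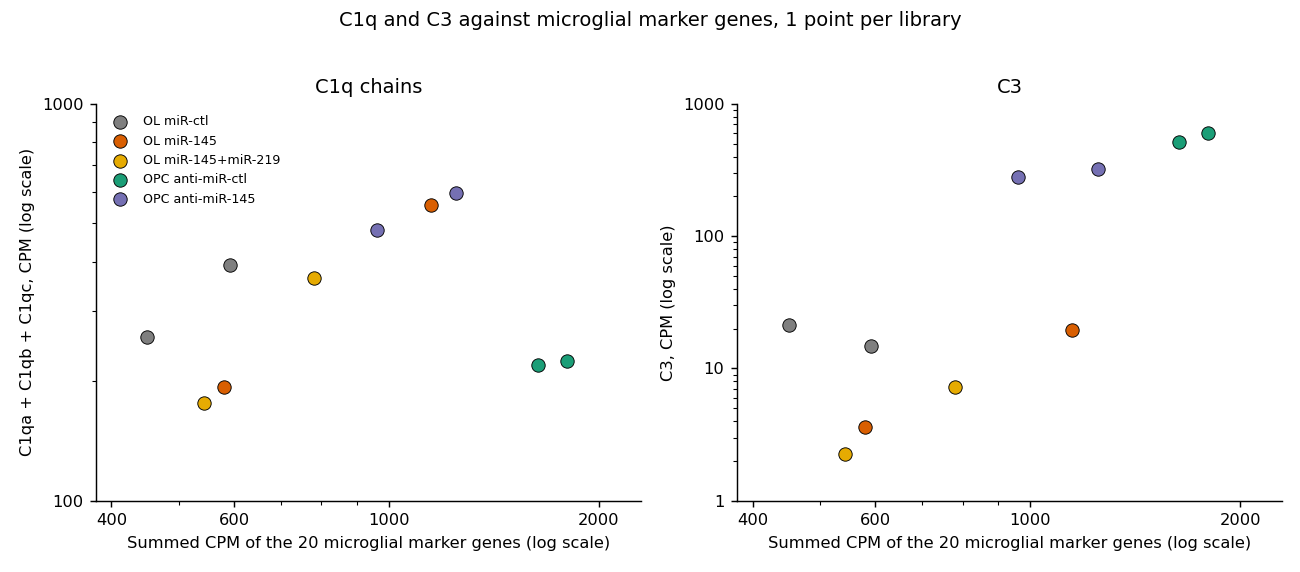
The summed CPM of C1qa, C1qb and C1qc (left) and the CPM of C3 (right) are plotted against the summed CPM of 20 microglial genes, all on log scales, with 1 point per library coloured by group. OPC anti-miR-ctl has the largest microglial sums (1636 and 1800 CPM) but C1q sums of only 220.4 and 226 CPM, while its C3 is the highest at 515 and 602 CPM.

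The mimic experiment asks whether complement genes differ when miR-145 is raised in differentiating OLs. None of the 9 genes was called in OL miR-145 against OL miR-ctl without a replicate block, nor was any other gene. In this edgeR fit 0% of 15461 genes were called, while DESeq2 called 649 genes and none of the 9. None of the 9 complement genes (0) had an unadjusted p under 0.05 beside 13.4% of all genes (2067). The libraries of the groups did not overlap for 1 of the 9 genes beside 47.3% of all genes. That gene was C1s, at 9.95 and 11.95 CPM in OL miR-145 against 20.3 and 12.6 CPM. Its log2 fold change was -0.58 ± 0.26, with an adjusted p of 0.41 in edgeR. Deviations of same-numbered libraries correlated at 0.40 across genes, although shared cultures are not stated. A fit with a replicate block, tried as an alternative, called C1s and C3 lower, among 2272 of all 15461 genes.

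For most of the genes the OL miR-145 libraries differed from each other by more than the groups did. C1qa was at 80.6 CPM in replicate 1 and 203 CPM in replicate 2, C1qb at 72.3 and 213 CPM, and C1qc at 40.7 and 139.5 CPM. C3 was at 3.59 and 19.6 CPM, a gap of 5.46-fold. C3ar1 was at 3.51 and 8.29 CPM, C5ar1 at 3.65 and 12.8 CPM, and C2 at 19.1 and 31.2 CPM. Replicate 2 was the higher library for each of these 7 genes, and the microglial genes were higher in it as well, with sums of 579 and 1148 CPM. Against OL miR-ctl all 20 microglial genes and all 10 astrocyte genes had log2 fold changes above 0, with medians of 0.66 and 0.87, none of them called, and their part was not tested. C1r, at 14.0 and 11.2 CPM, did not share the gap, and C1s shared little of it. Log2 fold changes against OL miR-ctl were 0.21 ± 0.44 for C1qa, 0.30 ± 0.52 for C1qb, 0.09 ± 0.56 for C1qc, 0.27 ± 0.25 for C1r, 0.39 ± 0.26 for C2, -0.64 ± 0.72 for C3, 0.71 ± 0.44 for C3ar1 and 0.63 ± 0.62 for C5ar1. Without OL miR-145 replicate 2 those of C1qa, C1qb, C1qc, C2, C3ar1 and C5ar1 took the other sign, at between -1.06 for C1qc and -0.012 for C2, and without OL miR-145 replicate 1 that of C3 became 0.12.

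With miR-219 added, mean levels were the lowest of the OL groups for every one of the 9 genes except C3ar1. For C2 and C5ar1 they were nearly those of OL miR-ctl, at 18.8 against 19.3 CPM and at 5.29 against 5.36 CPM. C3 was at 2.26 and 7.19 CPM in OL miR-145+miR-219 against 21.5 and 14.9 CPM in OL miR-ctl, a log2 fold change of -1.95 ± 0.56. C1s was at 8.35 and 8.20 CPM against 20.3 and 12.6 CPM, at -0.99 ± 0.26. Neither passed the correction (adjusted p = 0.8 for both in edgeR), although DESeq2 called C3 at an adjusted p of 0.0276. In edgeR 0% of 15436 genes were called, and 106 in DESeq2. In edgeR, 2 of the 9 genes had an unadjusted p under 0.05 beside 6.19% of all genes (956), and the same 2 were the only ones of the 9 with groups that did not overlap, beside 36.8% of all genes.

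The other 7 genes overlapped between the groups. C1qa was at 73.3 and 141 CPM in OL miR-145+miR-219, C1qb at 65.5 and 136 CPM and C1qc at 37.2 and 86.9 CPM, with log2 fold changes against OL miR-ctl of -0.19 ± 0.35, -0.21 ± 0.40 and -0.45 ± 0.43. C1r was at 10.0 and 8.82 CPM and C2 at 17.9 and 19.7 CPM, with log2 fold changes of -0.15 ± 0.24 and -0.03 ± 0.15. C3ar1 was at 3.41 and 5.11 CPM and C5ar1 at 3.36 and 7.22 CPM, at 0.24 ± 0.28 and -0.01 ± 0.46. As in OL miR-145, replicate 2 was the higher library for the C1q chains, C3 and the receptors, and its microglial sum was 780 CPM beside 542 CPM in replicate 1.

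Against OL miR-145, which shares its libraries with the first mimic comparison, the group with both mimics had values below 0 for all 9 genes on the log2 scale, from -1.32 ± 0.94 for C3 to -0.41 ± 0.17 for C1s, and none was called. In edgeR 0% of 15501 genes were called in this comparison, 1.47% (228) reached an unadjusted p under 0.05 and DESeq2 called 9. None of the 9 complement genes passed in either tool or at the unadjusted threshold. With a replicate block, C3 was called lower, among 184 of all 15501 genes. C1r and C1s did not overlap between the groups, 2 of 9 genes beside 24.8% of all genes. Without OL miR-145 replicate 2 the C1q chains, C3 and both receptors turned to values between 0.28 and 0.61.

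**Figure D3:**
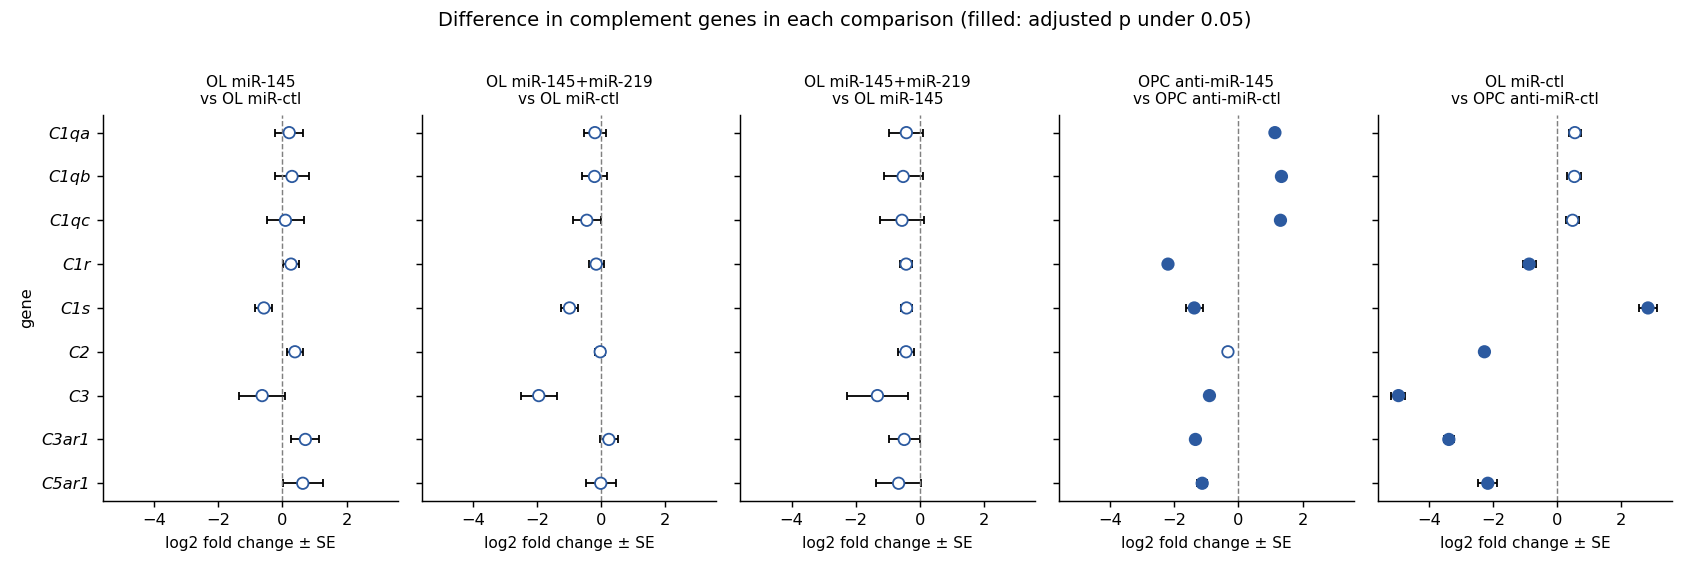
Points are log2 fold changes of the 9 genes and bars are standard errors in each of 5 comparisons, filled where the adjusted p was under 0.05 in edgeR. Bars shorter than a point are hidden by it. The inhibitor comparison has 8 filled points, 3 to the right (C1q chains) and 5 to the left, the comparison of controls has 6, and the mimic comparisons have none.

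Over the 5 groups the genes had different orders. C1qa, C1qb and C1qc followed the order OPC anti-miR-145, OL miR-145, OL miR-ctl, OL miR-145+miR-219 and OPC anti-miR-ctl by mean, but all neighbours in that order overlapped. C3 ran from 558 ± 61.6 CPM (SD, n = 2) in OPC anti-miR-ctl and 301 ± 30.9 CPM in OPC anti-miR-145 to 18.2 ± 4.68 CPM in OL miR-ctl, 11.6 ± 11.3 CPM in OL miR-145 and 4.73 ± 3.49 CPM in OL miR-145+miR-219, with overlap only among the OL groups. C2, C3ar1 and C5ar1 were also highest in OPC anti-miR-ctl and next in OPC anti-miR-145, whose C5ar1 overlapped OL miR-145. By mean, C1s ran from OL miR-ctl (16.4 ± 5.39 CPM) through OL miR-145 (10.95 ± 1.42 CPM), OL miR-145+miR-219 (8.28 ± 0.10 CPM) and OPC anti-miR-ctl (2.28 ± 0.06 CPM) to OPC anti-miR-145 (0.882 ± 0.22 CPM). Neighbours did not overlap, but neither difference among the OL groups was called. C1r was highest in OPC anti-miR-ctl (19.1 ± 0.33 CPM) and lowest in OPC anti-miR-145 (4.2 ± 0.11 CPM), and the OL groups lay between. For C1r, OL miR-ctl overlapped both other OL groups, while OL miR-145 lay above OL miR-145+miR-219 without overlap, a difference that was not called. With 2 libraries per group such separation is common. It held for 47.3% of all genes between OL miR-145 and OL miR-ctl and for 24.8% between the mimic groups.

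The C1q chains kept close proportions. C1qb came to between 0.894 and 1.13 of C1qa in all 10 libraries, while C1qa itself varied 2.82-fold. C1qc came to between 0.504 and 0.834 of C1qa. C3 did not share this, since its ratio to C1qb ran from 0.0345 in OL miR-145+miR-219 replicate 1 to 7.65 in OPC anti-miR-ctl replicate 1. These are ratios of CPM, which are not corrected for transcript length.

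Genes with the most similar profiles were sought for each of the 9 among 12521 named genes with a mean of at least 1 CPM, by the Pearson correlation of log2(CPM + 1) over the 10 libraries. The libraries form groups that differ widely, which alone gives high values, so r is a description. C1qa was closest to C1qb (r = 0.994) and C1qc (r = 0.965), followed by Fut7 (r = 0.931), a fucosyltransferase. For C1qb the first gene outside the trio was Moxd1 (r = 0.918) and for C1qc it was Ms4a4e (r = 0.948). C1r was closest to Chi3l1 (r = 0.978), a secreted chitinase-like protein, then to Pex26 and Gbp6. C1s was closest to Csf1 (r = 0.992), the growth factor that microglia need, then to Efr3b and Tpcn2. C2 was closest to Clec4a (r = 0.997), a lectin of myeloid cells, then to Nupr1 and Fcrl2. C3 was closest to Tcof1 (r = 0.989), a nucleolar protein, then to Arid3b and Egr3. C3ar1 was closest to Tlr7 (r = 0.998), an endosomal RNA sensor, then to Pik3cg and Mlkl. C5ar1 was closest to Syk (r = 0.989), a kinase of immune receptors, then to Fli1 and Unc93b1.

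Other complement genes were taken from a list of 48 symbols, 33 of which were found. In OPC anti-miR-145 against OPC anti-miR-ctl 31 were tested, of which 7 were called higher and 8 lower, where 12.1% of all genes were called higher and 16% lower. The median log2 fold change was 0.07 beside 0.00451 over all genes. Among regulators, Clu, which blocks the membrane attack complex, was higher at 64.4 and 61.2 CPM against 31.9 and 31.7 CPM (log2 fold change 0.97 ± 0.09). Cd59, a membrane inhibitor of the attack complex, was higher at 6.54 and 5.27 CPM against 3.69 and 3.78 CPM (0.65 ± 0.17). On the side of activation, the alternative pathway's properdin Cfp (0.87 ± 0.15) and factor D gene Cfd (1.20 ± 0.22) were higher. C1qbp, a protein that binds C1q in vitro and resides in mitochondria, was higher (0.50 ± 0.09). Fcna, a ficolin, was also called higher (0.85 ± 0.26).

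The genes that fell included the subunits of complement receptors 3 and 4, which bind fragments of C3. Itgam was at 33.5 and 31.9 CPM in OPC anti-miR-145 against 104 and 89.6 CPM (log2 fold change -1.58 ± 0.10), Itgax at 8.40 and 4.37 CPM against 35.9 and 29.7 CPM (-2.38 ± 0.28), and their shared partner Itgb2 at 83.2 and 51.8 CPM against 316 and 286 CPM (-2.17 ± 0.21). Itgam is in the microglial list too. Masp1, a protease of the lectin pathway, was at 47.4 and 48.7 CPM against 112 and 104 CPM (-1.18 ± 0.08). The regulators Susd4 (-0.37 ± 0.08) and Csmd1 (-0.90 ± 0.21), Serping1 (-2.14 ± 0.62), which encodes the inhibitor of C1r and C1s, and the collectin Colec12 (-0.68 ± 0.18) fell as well. Serping1 was below 1 CPM in all 4 libraries. Adjusted p-values of the genes named here ranged from 0.000112 for Itgam to 0.0486 for Fcna.

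In OL miR-ctl against OPC anti-miR-ctl 30 of the list were tested, 8 were called higher and 8 lower, close to the 28.8% and 28.7% of all genes, and the median log2 fold change was -0.18 beside 0.00721 over all genes. Clu was at 358 and 381 CPM in OL miR-ctl against 31.9 and 31.7 CPM (3.52 ± 0.08), Cd59 at 23.6 and 25.6 CPM against 3.69 and 3.78 CPM (2.70 ± 0.12) and Serping1 at 6.58 and 3.28 CPM against 0.600 and 0.246 CPM (3.50 ± 0.54). Also higher were Cfd (2.16 ± 0.35), Csmd1 (1.07 ± 0.14) and C8g (0.98 ± 0.21), a chain of the attack complex component C8. Among the genes that were lower, Itgax (-5.08 ± 0.17), Itgb2 (-4.21 ± 0.14) and Itgam (-3.41 ± 0.19) were joined by Colec12 (-3.63 ± 0.23), Masp1 (-1.39 ± 0.09) and Cfp (-1.69 ± 0.14). Itgb2 was at 14.8 and 18.1 CPM in OL miR-ctl and at 316 and 286 CPM in OPC anti-miR-ctl, levels that did not approach each other.

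**Figure D4:**
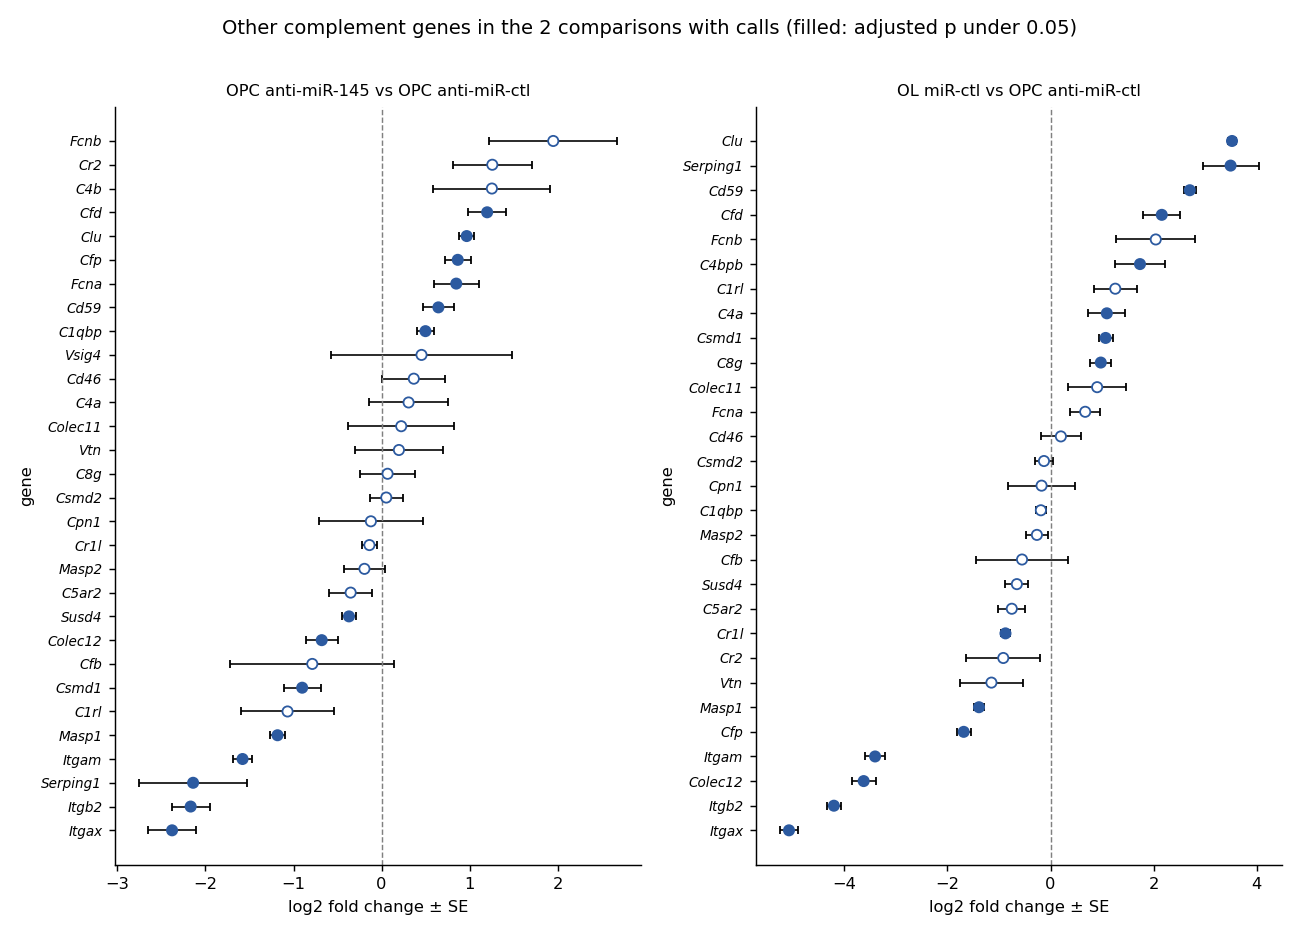
Log2 fold changes (horizontal axis) with standard errors of other complement genes tested, ordered by size, in OPC anti-miR-145 against OPC anti-miR-ctl (left) and OL miR-ctl against OPC anti-miR-ctl (right), filled where the adjusted p was under 0.05. Itgax has the lowest value on both sides (-2.38 and -5.08), and the highest called value is that of Cfd on the left (1.20) and of Clu on the right (3.52).

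With the mimics none of the listed genes was called by edgeR, and those with an unadjusted p under 0.05 numbered 5 of 32 tested for miR-145, 5 of 29 for both mimics against OL miR-ctl and 1 of 31 for both mimics against OL miR-145. The shares over all genes were 13.4%, 6.19% and 1.47%. Cd59 was at 91.4 and 57.1 CPM in OL miR-145 and at 80.7 and 40.5 CPM in OL miR-145+miR-219, beside 23.6 and 25.6 CPM in OL miR-ctl, with log2 fold changes of 1.6 ± 0.24 and 1.31 ± 0.33 and adjusted p of 0.158 and 0.8. Clu was at 752 and 615 CPM in OL miR-145 and at 592 and 430.4 CPM with both mimics, beside 358 and 381 CPM, with log2 fold changes of 0.89 ± 0.15 and 0.48 ± 0.18. These comparisons share the OL miR-ctl libraries. Fcnb and, with both mimics, Serping1 (-1.65 ± 0.47) and Cfd (-1.20 ± 0.40) were among the others, as were Cr1l (0.38 ± 0.12) and C9 in OL miR-145. Fcnb and C9 were below 1 CPM in every OL library. C1rl (-1.25 ± 0.37) was the gene of the last comparison, at 0.491 and 0.365 CPM against 1.01 and 1.04 CPM.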

How the data were processed

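Per the labels, stranded mRNA libraries were made from 10 samples. The authors assigned reads to rat GENCODE Rnor6.0 transcripts with Salmon 0.12.0, summed them to genes with tximport, and the table they deposited holds estimated counts without normalization. Between 16.0% and 17.5% of a library's values were not whole, and counts were rounded. A second deposited table holds the authors' DESeq2 comparison (fold changes and p-values) and was used only for gene names.

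Each comparison was fitted on its 4 libraries with edgeR 4.0.16 in R 4.3.3 (TMM, glmQLFit, glmQLFTest) after keeping genes that reached 5 counts in 2 or more of them. A gene was called at an adjusted p under 0.05 (Benjamini-Hochberg, all genes tested). The SE is the log2 fold change divided by the square root of F. CPM use TMM factors over 10 libraries. Alternatives were DESeq2 1.42.0, its size factors within edgeR, other filters, a single fit of all groups, a replicate block and leaving out each library. Functions were tested on data simulated with 200 changed genes. For OL miR-145 against OL miR-ctl, edgeR called 148 of these and 20 unchanged genes, and DESeq2 159 and 45. For the inhibitor comparison edgeR called 170 and 18, and DESeq2 164 and 18. These are larger shares of false calls than the 0.05 threshold aims at. At the depths given, counting error matters for sparse genes, and having 2 libraries in a group limits the others.

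The 9 genes, the gene lists, the tests and the rule for named genes were chosen with earlier results of these data known. Besides the 9 genes, the rule names up to 6 called genes of the complement list in each direction (in comparisons without calls, those with an unadjusted p under 0.05) and the 3 genes of most similar profile. Fcna, Colec12 and Serping1 in the inhibitor comparison were named after their values were seen. Some genes counted in the lists are not reported here by name. The library construction, cultures and transfections follow the labels, although the methods paragraph on sequencing names lentivirus.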

Additional observations from a re-analysis of the deposited data

How the results depend on the processing

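In the inhibitor comparison the 9 log2 fold changes kept their sign under every alternative. Of the 9 genes 8 were called, and 3 when all groups were fitted together. With 1 library left out, a group holds 1 library and the spread comes from the other group alone, so these calls carry little weight. Of all genes, 4348 were called, 2657 with all groups in a single fit and between 2424 (without OPC anti-miR-ctl replicate 1; 2530 without replicate 2) and 7130 (without OPC anti-miR-145 replicate 2) with 1 library left out. In the comparison of controls signs were kept too, between 5 and 9 of the 9 genes were called with 1 library left out, and between 5016 (without OPC anti-miR-ctl replicate 2; 5071 without replicate 1) and 10591 genes in all beside 9042.

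With the mimics no gene of the 9 was called in edgeR fits without a replicate block. Against OL miR-ctl, DESeq2 called 649 genes for miR-145 and 106 for both mimics, 1 of them complement C3, and 9 between the mimic groups. A single fit of all groups called 79 genes for miR-145, and the fit with no filter on low counts called 1 for both mimics. With a library left out, log2 fold changes crossed 0 for miR-145 (-0.61 to 0.73 for C1qa, -0.69 to 0.88 for C1qb, -1.06 to 0.72 for C1qc, -0.012 to 0.70 for C2, -2.33 to 0.12 for C3, -0.040 to 1.20 for C3ar1 and -0.55 to 1.27 for C5ar1), for both mimics (-0.75 to 0.20 for C1qa, -0.84 to 0.22 for C1qb, -1.19 to 0.038 for C1qc, -0.41 to 0.17 for C1r, -0.16 to 0.11 for C2, -0.084 to 0.51 for C3ar1 and -0.67 to 0.44 for C5ar1) and between the mimic groups (-0.96 to 0.41 for C1qa, -1.14 to 0.48 for C1qb, -1.29 to 0.61 for C1qc, -2.38 to 0.39 for C3, -0.98 to 0.28 for C3ar1 and -1.31 to 0.53 for C5ar1). The cause of these shifts was not tested beyond the construction of each alternative.

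The replicate numbers are not stated to mark shared cultures, and there are 2 pairs per comparison. Deviations of same-numbered libraries correlated at 0.40, 0.47 and 0.63 across genes in the mimic comparisons in the order above, at -0.15 with the inhibitor and at 0.07 between controls. With the replicate block, 2272, 132 and 184 genes were called in the mimic comparisons, among them 2 of the 9 for miR-145 (C1s and C3, both lower), 0 for both mimics and 1 between the mimic groups (C3, lower), and C1qc turned to -0.13 for miR-145. With the inhibitor the block gave 3963 calls, and the crossed pairing, added after seeing the data, gave 5536 with all 9 genes among them. The block changed no other call of the 9 genes. Depth limits C1s in OPCs, and 2 libraries per group limit every comparison.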

Other observations

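Microglial genes did not move as a block in OPC anti-miR-145. Among the 8 of 20 that were called higher beside C1q were Gpr34 (log2 fold change 3.66 ± 0.26), P2ry13 (1.97 ± 0.36), Cx3cr1 (1.83 ± 0.19), Trem2 (1.67 ± 0.17) and P2ry12 (1.03 ± 0.18), which encode surface receptors, and Cd68 (0.42 ± 0.11), which encodes a lysosomal protein. Among the 10 that were called lower beside C3 and the receptors were Siglec5 (-2.65 ± 0.18), Itgam (-1.58 ± 0.10), Ptprc (-1.52 ± 0.12), Spi1 (-1.44 ± 0.19), which encodes PU.1, and Aif1 (-1.40 ± 0.21). The receptor gene Csf1r was called lower by less (-0.41 ± 0.11), and Tmem119, a marker of resident microglia, was not called (-0.25 ± 0.12). Adjusted p-values in edgeR's quasi-likelihood test ranged from 0.000112 for Itgam to 0.0364 for Csf1r among the called genes named. These genes were chosen after their values were seen. Gpr34 and P2ry13 were low in OPC anti-miR-ctl, at 0.669 and 0.383 CPM for Gpr34 and at 0.277 and 0.493 CPM for P2ry13. Cx3cr1 was at 12.8 ± 0.89 CPM (SD, n = 2) against 3.54 ± 1.03 CPM, and Spi1 at 31.2 ± 8.55 CPM against 83.7 ± 7.84 CPM.

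In OL miR-ctl against OPC anti-miR-ctl genes called higher included Gpr34 (3.33 ± 0.35), P2ry13 (2.03 ± 0.40) and Trem2 (1.13 ± 0.14), and Siglec5 (-4.48 ± 0.17) was the lowest of the 13 called lower. Both comparisons share the OPC anti-miR-ctl libraries, in which Gpr34 and P2ry13 were low.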
